A study of Polypedilum vanderplanki with 24 samples.

Results

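The ribosomal protein genes of Pv11 cells were taken as the genes that carry the gene ontology term for a structural constituent of the ribosome in the deposited table, each gene once. The term was on 123 of 17782 genes. Of these, 71 encode proteins of the cytosolic ribosome, 29 of the small and 42 of the large subunit. The other 52 encode proteins of the mitochondrial ribosome, 19 of the small subunit, 32 of the large subunit and 1 not placed in a subunit. BLAST descriptions in the table name a ribosomal protein for 35 members, and the other 88 were placed by the protein domain and pathway annotation of the same table. No member had a domain that went against its BLAST name. A level of at least 1 TPM (a read count divided by gene length and scaled to a fixed total in each library) in at least 1 group was met by 122 members. The exception was a mitochondrial L52 gene, g7663, which is listed at 0 in every group.

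Pv11 cells come from the midge Polypedilum vanderplanki, known as the sleeping chironomid, and survive complete drying if they are first kept in the sugar trehalose. For 4 Pv11 lines, poly(A) RNA from 3 libraries per group was sequenced at T0, before trehalose, and at T48, at the end of 48 h in it, which makes 8 groups. By the study's methods, the trehalose mixture held only a small part of culture medium. No group was kept for 48 h without the mixture. Trehalose, the loss of medium and time therefore cannot be told apart in a difference between T48 and T0. The Hsf1-/- line is a clone in which both copies of the gene for heat shock factor 1 (HSF1) carry an insert in exon 1, with a green fluorescent protein and a zeocin resistance gene under the promoter of g7775, a strongly transcribed gene. Both further clones were made from Hsf1-/- cells by insertion before the stop codon of g7775 itself. The Hsf1-/-; Hsf1-HaloTag/BlaR clone, called HSF1-rescue cells here, received Hsf1, HaloTag and a blasticidin resistance gene there. The Hsf1-/-; HaloTag/BlaR clone, called control cells here, received HaloTag and the resistance gene without Hsf1. WT cells are the unedited Pv11 line. Each edited line is 1 clone, so that a difference between lines cannot be told apart from a difference between clones.

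Ribosomes of the cytosol translate nearly all cellular mRNAs. Their proteins, named S for the small and L for the large subunit, are needed in equal numbers, and in growing cells their mRNAs are among the most abundant. Mitochondria hold a second, bacterial type of ribosome that makes only the few proteins encoded in the mitochondrial DNA, mainly subunits of the respiratory chain. Its proteins, written here with the prefix mt, are encoded in the nucleus and imported.

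The deposited values are the mean TPM of each group. No spread between libraries comes with them, and library depth was not used here, so the differences below are descriptions without a test, and every TPM value is the authors' group mean. The targeted gene, Hsf1 (g3611, chromosome 1), was listed at 0.139 and 0.00892 TPM at T48 and T0 in HSF1-rescue cells, 0.197 and 0.0110 TPM in control cells, 0.248 and 0.0271 TPM in Hsf1-/- cells, and 0.307 and 0.0863 TPM in WT cells. Its level was under 1 TPM in all 8 groups, was not higher in HSF1-rescue than in control cells, and therefore does not check the labels. By western blot, the paper found HSF1 protein in HSF1-rescue cells but not in Hsf1-/- or control cells. The host gene of the inserts, g7775, was the most abundant gene of the table on average, at 12040 and 36840 TPM at T48 and T0 in HSF1-rescue cells, against 37726 and 48410 TPM in control cells. TPM values are shares of a fixed total. Over all genes of at least 1 TPM in either group, the T48 over T0 ratio had a log2 median of 0.08 in HSF1-rescue, 0.35 in control, 0.30 in Hsf1-/- and 0.53 in WT cells, so class medians and counts are also given after median-of-ratios scaling, which brings the median of all genes to about 0. Ratios of single genes are as deposited unless scaling is named. In these bulk cultures, fewer cells with a transcript and less of it per cell cannot be told apart.

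Cytosolic ribosomal protein genes held a smaller share of the transcripts after trehalose than before it in every line. Their summed TPM was 19.5% of the total at T48 and 33.3% at T0 in HSF1-rescue cells, 24.6% and 36.5% in control cells, 24% and 35.8% in Hsf1-/- cells, and 21.8% and 34.6% in WT cells. The share was lower at T48 in each of the 4 lines, and lowest in HSF1-rescue cells at T48. Mitochondrial ribosomal protein genes held under 1% in every group, with 0.292% at T48 and 0.320% at T0 in HSF1-rescue cells, 0.345% and 0.336% in control cells, 0.336% and 0.404% in Hsf1-/- cells, and 0.364% and 0.288% in WT cells. The mitochondrial share was thus higher at T48 in control and WT cells and lower in the other lines. In control cells this rests on a single gene, mt-S14, with 370 TPM at T48 and 78.2 TPM at T0. That difference is larger than the difference of the class sum. Of the 51 mitochondrial genes with a level, 29 were lower at T48 in control cells, but only 12 in WT cells.

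**Figure D1:**
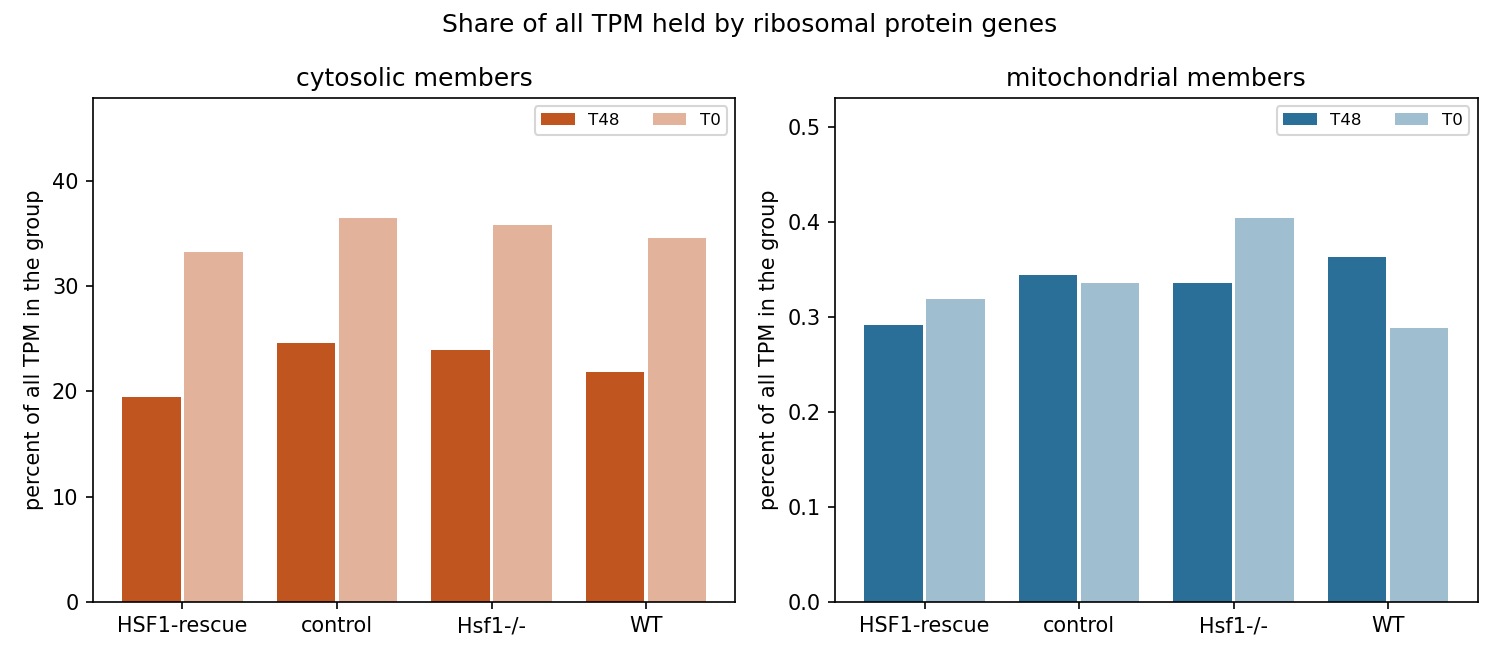
Share of all TPM in each group held by the 71 cytosolic (left) and the 52 mitochondrial (right) ribosomal protein genes, in percent. Bars are sums over group means, with T48 left of T0 in each line. The cytosolic bars stand at 19.5% to 24.6% at T48 and 33.3% to 36.5% at T0, while the mitochondrial bars stay between 0.288% and 0.404%.

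The median cytosolic gene stood at 2755 TPM at T48 and 4836 TPM at T0 in HSF1-rescue cells, 3638 and 5379 TPM in control cells, 3513 and 5101 TPM in Hsf1-/- cells, and 3166 and 4797 TPM in WT cells. Over all 52 mitochondrial genes the medians were 35.9 and 47.1 TPM, 49.3 and 54.1 TPM, 49.1 and 69.8 TPM, and 52.3 and 40.4 TPM in the same order. Since TPM is a value per length, these levels can be set side by side. The cytosolic median was 60.6 times the mitochondrial one in WT cells at T48 and 119 times in WT cells at T0, the extremes of the 8 groups. Among the 100 most abundant genes of a group, members numbered from 51 in HSF1-rescue cells at T48 to 62 in WT cells at T0.

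**Figure D2:**
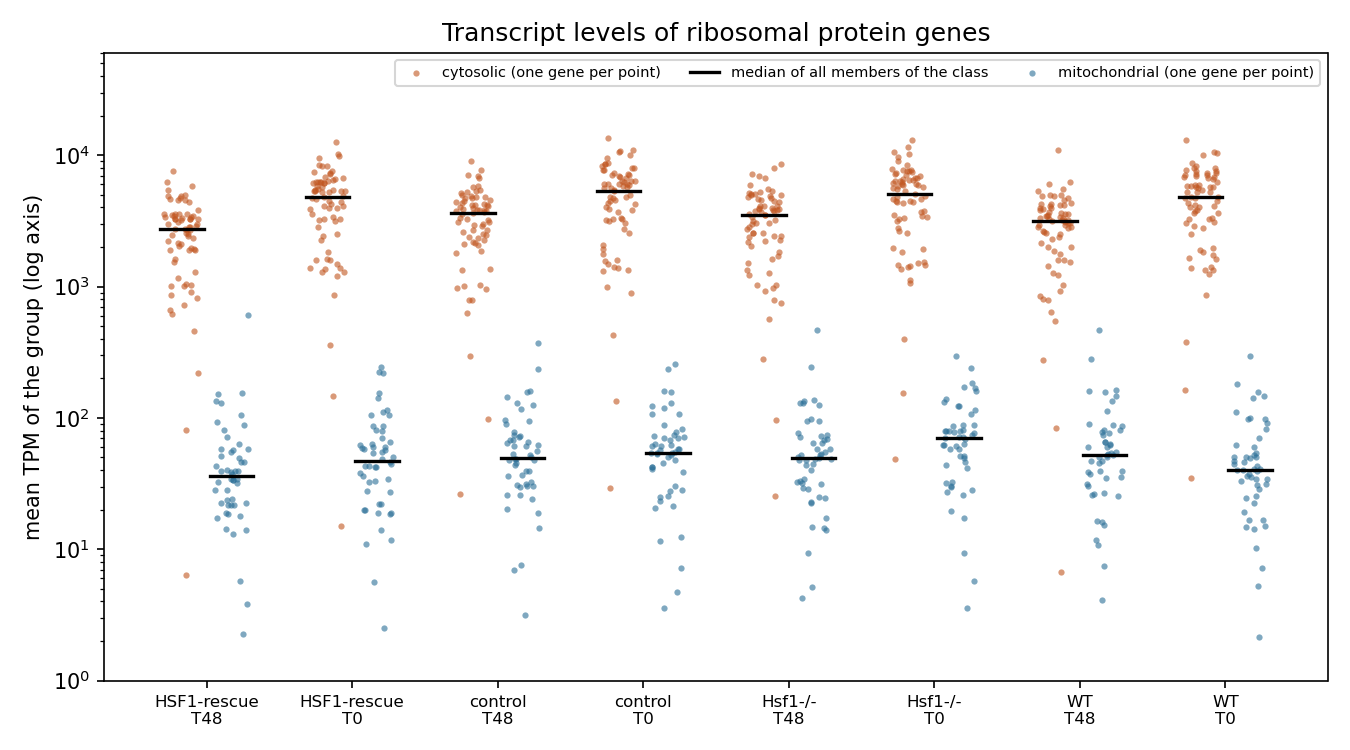
Mean TPM of every ribosomal protein gene in each group, on a log axis, with 1 point per gene and a bar at the class median. The cytosolic medians lie between 2755 and 5379 TPM and the mitochondrial medians between 35.9 and 69.8 TPM. The mt-L52 gene listed at 0 is in the median but cannot be drawn on this axis.

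Within the cytosolic class most genes were of similar level and a few were far below the rest. Of the 10 most abundant genes of the table, 4 are members. These are S16, a protein of the small subunit (g556, rank 5), L10, which sits near the site where the peptide bond is made (g2519, rank 6), the fusion of ubiquitin with S27a (g11608, rank 7), and L6 of the large subunit (g10918, rank 10). Far below the rest were the weak copies of L37 (g12997, rank 951) and of L27 (g8270, rank 3606). The most abundant mitochondrial gene was mt-S14 (g4089) at rank 415, followed by mt-L2 at 600, mt-L15 at 601 and mt-L7/L12 at 651.

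The first question of the design is how these transcripts differed between T0 and T48 in each line. Cytosolic ribosomal protein genes were lower at T48 nearly without exception. The class median of the log2 ratio of T48 over T0, taken on TPM + 1, was -0.76 in HSF1-rescue cells, -0.59 in control cells, -0.58 in Hsf1-/- cells and -0.64 in WT cells. As folds these medians are 1.69, 1.5, 1.49 and 1.56 times lower. All 71 genes were lower at T48 in HSF1-rescue cells, where 45.1% of all genes tested were, and 67 in control cells, against 34.2% of all genes. The counts were 71 in Hsf1-/- cells against 36.7% of all genes, and 69 in WT cells against 23.3%. In each line the share of members that was lower is thus far above that of all genes.

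Few members passed a 2-fold difference. In HSF1-rescue cells 11 cytosolic genes were at least 2-fold lower at T48, beside 6.70% of all genes. In control cells 1 was, beside 8.25%, in Hsf1-/- cells 0, beside 8.26%, and in WT cells 9, beside 4.61%. None was 2-fold higher in any line, where 11.5%, 24.5%, 22.7% and 25.7% of all genes were, in the same order of lines. At a threshold of 1.5-fold the count lower was 58 in HSF1-rescue cells beside 15.9% of all genes, 36 in control cells beside 15.5%, 34 in Hsf1-/- cells beside 16.6%, and 43 in WT cells beside 9.12%. The cytosolic genes therefore differed by a similar, moderate amount and not through a few large differences. The middle 50% of the genes spanned 0.27, 0.31, 0.22 and 0.36 log2 units in the 4 lines, while that of all genes spanned 0.88, 1.23, 1.24 and 0.98.

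Scaling made the cytosolic medians more negative, at -0.85 in HSF1-rescue, -0.97 in control, -0.90 in Hsf1-/- and -1.23 in WT cells. After scaling, 18, 30, 20 and 61 of the 71 genes were at least 2-fold lower at T48, against 8.0%, 13.8%, 13.8% and 11% of all genes. The order of the lines hence depends on the scale. HSF1-rescue cells had the lowest median as deposited, and WT cells the lowest after scaling. Across the 4 lines, 66 genes were lower at T48 in every line as deposited, and 70 after scaling. The share of all genes lower in every line was not taken.

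**Figure D3:**
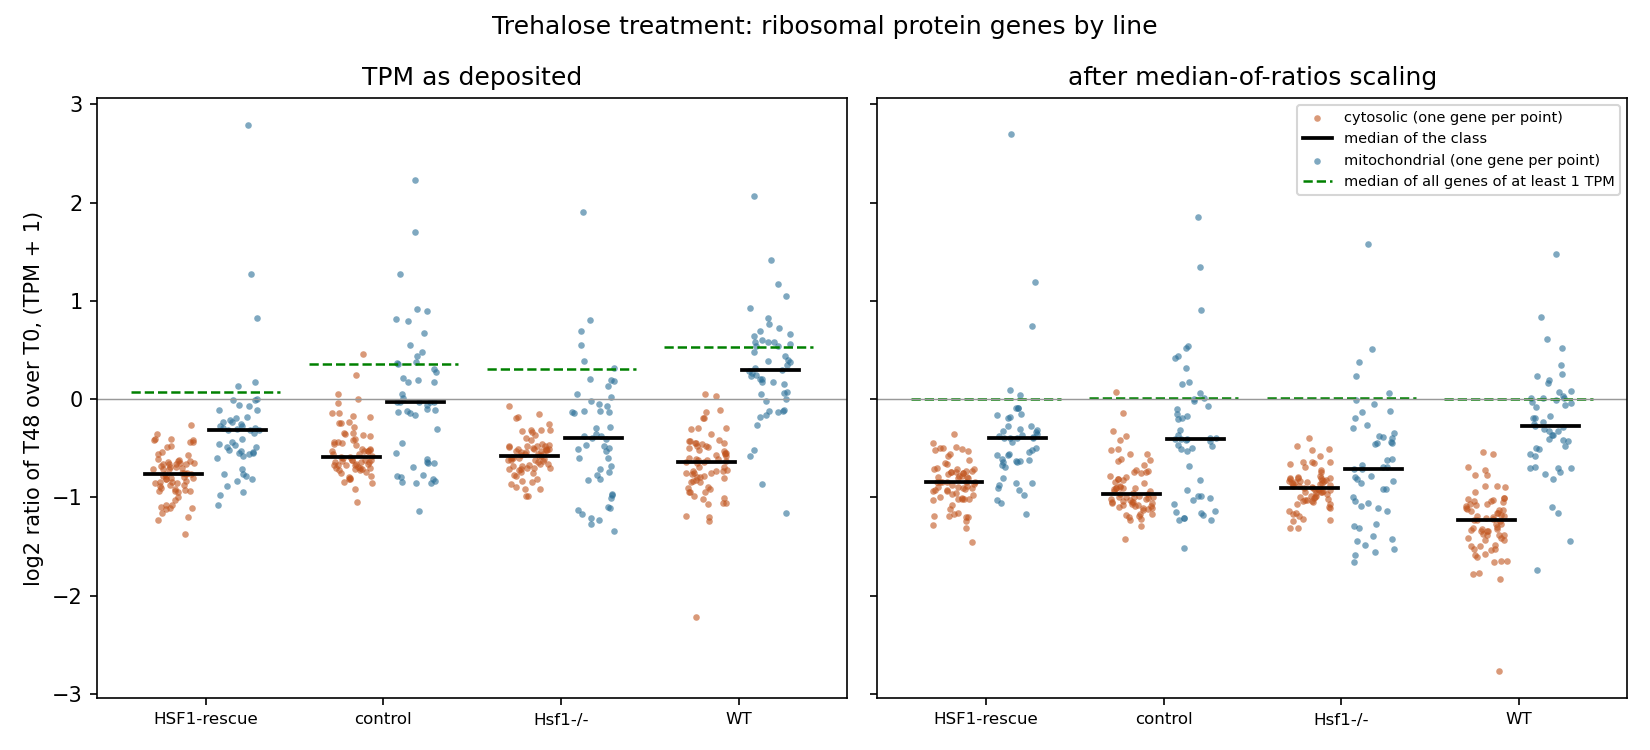
Log2 ratio of T48 over T0, on TPM + 1, for each ribosomal protein gene of at least 1 TPM in each line, with the TPM as deposited (left) and after median-of-ratios scaling (right). Bars mark class medians and dashed lines the median of all genes of at least 1 TPM. Cytosolic points form a narrow band below 0, with medians of -0.58 to -0.76 as deposited, and mitochondrial points spread widely, with mt-S14 at the top in every line.

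Genes of the small and large subunits gave like medians. Small subunit genes stood at -0.71 in HSF1-rescue, -0.56 in control, -0.56 in Hsf1-/- and -0.69 in WT cells, and large subunit genes at -0.79, -0.60, -0.60 and -0.62. After scaling they stood at -0.80, -0.94, -0.88 and -1.28 for the small and -0.88, -0.98, -0.93 and -1.20 for the large subunit. The 25 cytosolic members that BLAST alone names had medians of -0.81, -0.66, -0.58 and -0.64, close to the class as a whole.

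Individual proteins show how even the pattern was. S16 had 6291, 7750, 8023 and 6295 TPM at T48 in HSF1-rescue, control, Hsf1-/- and WT cells, against 12541, 13421, 13080 and 13101 TPM at T0. Every T48 value lay below every T0 value, and the log2 ratios were -1.0, -0.79, -0.71 and -1.06. L6 had 4941, 6695, 6668 and 6050 TPM at T48 and 9443, 10570, 9646 and 9968 TPM at T0, and its T48 and T0 groups did not overlap either. L23A, which lies at the exit of the peptide tunnel, had 3330, 4137, 3808 and 3958 TPM at T48, against 7414, 8560, 7529 and 7948 TPM at T0. It was lowest of the cytosolic genes in control cells by this ratio, at -1.05, and its ratios of -1.15, -0.98 and -1.01 in the other lines were nearly the same.

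L10 was the clearest departure among the abundant genes. It had 7644, 9071, 8530 and 10874 TPM at T48, against 10157, 10766, 10603 and 10520 TPM at T0. In WT cells the T48 value was slightly above the T0 value, at a log2 ratio of 0.05, while the other lines stood at -0.41, -0.25 and -0.31. After scaling L10 was lower at T48 in WT cells as well, at -0.54.

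The ribosomal stalk recruits the translation factors that hydrolyse GTP, and its acidic proteins P1 and P2 are the only ribosomal proteins present in several copies. The P1/P2 gene g11240 had 3806, 4702, 5026 and 3509 TPM at T48 in HSF1-rescue, control, Hsf1-/- and WT cells, against 5873, 5960, 6253 and 6298 TPM at T0. The other, g4868, had 3246, 3828, 3762 and 2836 TPM at T48 and 4397, 4503, 4479 and 4322 TPM at T0. Both were lower in all 4 lines, at log2 ratios of -0.63, -0.34, -0.32 and -0.84 for g11240 and -0.44, -0.23, -0.25 and -0.61 for g4868. Both thus stood above the class median in the HSF1-rescue, control and Hsf1-/- lines, and g11240 stood below it in WT cells.

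Some genes fuse a ribosomal protein to ubiquitin or a ubiquitin-like protein, which is cut off after translation. Ubiquitin-S27a had 5836, 6962, 6886 and 5377 TPM at T48, against 9873, 10866, 11511 and 10392 TPM at T0. Ubiquitin-L40 (g11385) had 4668, 5410, 5187 and 4864 TPM at T48 and 7334, 8595, 8422 and 7141 TPM at T0. The ratios ran from -0.95 in WT cells to -0.64 in control cells for S27a, and from -0.70 in Hsf1-/- cells to -0.55 in WT cells for L40. The fusion of a ubiquitin-like protein with S30 (g13545) was lower by less, with 3460, 3336, 3153 and 3304 TPM at T48 against 4612, 4299, 4632 and 4064 TPM at T0.

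Some ribosomal proteins have further roles. S6, the substrate of S6 kinase downstream of TOR signalling, had 2719, 4153, 3595 and 3821 TPM at T48, against 6239, 6379, 6391 and 5964 TPM at T0. Its T0 levels were alike in the 4 lines as deposited. Its T48 level was lowest in HSF1-rescue cells, where the log2 ratio was -1.20 against -0.62, -0.83 and -0.64 in control, Hsf1-/- and WT cells. Scaling lowers such ratios by the least in HSF1-rescue cells, with factors of 0.948 at T48 and 0.892 at T0. In WT cells the factors were 1.16 and 0.774, and the gap between the lines is smaller on that scale. SA (g14133), whose mammalian counterpart is also known as the laminin receptor, had 2818, 4368, 4133 and 3992 TPM at T48 and 6593, 8227, 7127 and 8322 TPM at T0. Its ratios of -1.23, -0.91, -0.79 and -1.06 were below the class median in every line. S3 (g11600), at the channel where mRNA enters, had 2420, 3086, 3035 and 2955 TPM at T48 against 4104, 4541, 4348 and 4069 TPM at T0, which gave ratios of -0.76, -0.56, -0.52 and -0.46.

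L5 and L11 bind the 5S rRNA and, in mammals, the p53 regulator MDM2. L5 (g10663) had 3262, 5705, 5506 and 4146 TPM at T48, against 6219, 8774, 7646 and 8702 TPM at T0. L5 was lowest in HSF1-rescue cells at both times. L11 (g11470) had 617, 793, 792 and 799 TPM at T48, against 1301, 1311, 1357 and 1346 TPM at T0, with nearly equal T0 levels in the 4 lines. The ratios of L11 were -1.08, -0.72, -0.78 and -0.75, and those of L5 were -0.93, -0.62, -0.47 and -1.07. Here too the ratios are as deposited, and scaling lowers them by the least in HSF1-rescue cells.

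A handful of cytosolic genes lay apart from the class, by at least 0.5 log2 units from its median. In control cells these were L30, S12, L10a, S27 and L22, all above the median. L30 (g10884), which in yeast controls the splicing of its own transcript, had 861, 1816, 1328 and 1429 TPM at T48 in HSF1-rescue, control, Hsf1-/- and WT cells, against 1361, 1325, 1397 and 1399 TPM at T0. Its T0 levels were alike, and at T48 it was lower in HSF1-rescue cells (log2 ratio -0.66) and higher in control cells (0.45), with -0.07 in Hsf1-/- and 0.03 in WT cells. S12 (g2608) had 1155, 2091, 1522 and 1524 TPM at T48 against 1481, 1768, 1919 and 1737 TPM at T0. Only in control cells was S12 higher at T48. L10a (g3791) had 1017, 2159, 1619 and 1783 TPM at T48, against 1614, 2075, 1833 and 1956 TPM at T0. After scaling, L30 was the only cytosolic gene still higher at T48 in any line, at 0.07 in control cells. S27 (g2607), a zinc finger protein of the small subunit, was the cytosolic gene that differed least in HSF1-rescue cells. There it had 3530 TPM at T48 and 4240 TPM at T0. In control, Hsf1-/- and WT cells S27 had 4023, 3951 and 3181 TPM at T48, against 4018, 4381 and 3623 TPM at T0.

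At the lower end, L28 (g6215) had 1903, 2255, 2036 and 1878 TPM at T48 against 4117, 3894, 3784 and 4454 TPM at T0, and S23 (g9066), a protein of the decoding centre, had 2569, 2678, 2573 and 3434 TPM at T48 against 5424, 4843, 5101 and 6819 TPM at T0. S23 was the lowest cytosolic gene in Hsf1-/- cells, at -0.99. The lowest ratio in HSF1-rescue cells, -1.37, belonged to a gene model that joins L37A to cytohesin (g6548), which had 461, 629, 564 and 548 TPM at T48 against 1192, 999, 1068 and 1251 TPM at T0. Since 9 of the 123 gene models hold another gene besides the ribosomal protein, their values cannot be given to the ribosomal protein alone.

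Both genes with a second copy in the table had a strong and a weak copy. For L27, g14568 had 4858, 5297, 5361 and 4984 TPM at T48 and 8353, 7974, 7917 and 7528 TPM at T0. The other copy, g8270, had 6.38, 26.3, 25.3 and 6.66 TPM at T48 and 15, 29.1, 48.7 and 34.6 TPM at T0. The weak copy differed more than any other cytosolic gene in WT cells, at -2.22, while the strong copy stood at -0.59. For L37, g12995 had 1534, 1861, 1716 and 1596 TPM at T48 against 2507, 2740, 2783 and 2768 TPM at T0, and g12997 had 80.5, 98.7, 96.7 and 83.6 TPM at T48 against 146, 134, 155 and 162 TPM at T0. Reads that fit more than 1 gene were not counted, so the levels of such copies are uncertain.

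Mitochondrial ribosomal protein genes did not share a direction as deposited, while most were lower at T48 after scaling. Their median log2 ratio of T48 over T0, over the 51 genes with a level, was -0.31 in HSF1-rescue cells, -0.03 in control cells, -0.40 in Hsf1-/- cells and 0.29 in WT cells. Lower at T48 were 46, 29, 39 and 12 of the 51 genes, which are to be read against 45.1%, 34.2%, 36.7% and 23.3% of all genes. After scaling the medians were -0.40, -0.41, -0.71 and -0.27, so that the WT median was negative on this scale, and 46, 39, 46 and 36 genes were lower, beside 50.1%, 49.6%, 49.6% and 49.9% of all genes. Relative to all genes, the class was thus lower at T48 in each line, by less than the cytosolic class. The 10 mitochondrial members that BLAST names stood at -0.51, -0.44, -0.71 and 0.16 as deposited and at -0.59, -0.81, -1.02 and -0.41 after scaling.

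At 2-fold, 1 mitochondrial gene was lower and 2 were higher as deposited in HSF1-rescue cells, beside 6.70% and 11.5% of all genes. The counts were 1 and 3 in control cells, beside 8.25% and 24.5%, 9 and 1 in Hsf1-/- cells, beside 8.26% and 22.7%, and 1 and 4 in WT cells, beside 4.61% and 25.7%. After scaling 3, 12, 16 and 4 genes were 2-fold lower in the 4 lines, beside 8.0%, 13.8%, 13.8% and 11% of all genes, and 2, 2, 1 and 1 were 2-fold higher, beside 10.5%, 15.3%, 15.2% and 12.6%. The 9 genes 2-fold lower in Hsf1-/- cells as deposited were mt-S17, mt-L34, mt-L7/L12, mt-L36, mt-S5, mt-L3, mt-L24, mt-L20 and mt-L11. The middle 50% of the class spanned 0.37, 0.99, 0.75 and 0.55 log2 units in the 4 lines, wider than the cytosolic class in each. Across the 4 lines, 9 genes were lower at T48 in every line as deposited, 4 were higher in every line, and 38 were mixed. After scaling 31 of the 51 were lower in every line and 3 were higher in every line. No share of all genes was taken for these counts, so they describe the members alone. Small and large subunit genes again had like medians, of -0.31, -0.03, -0.40 and 0.32 for the small subunit and -0.35, -0.03, -0.41 and 0.27 for the large one. After scaling these were -0.40, -0.40, -0.71 and -0.25, and -0.43, -0.41, -0.71 and -0.30.

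The 4 mitochondrial genes that were higher at T48 in every line were mt-S14, mt-L9, mt-S34 and the mt-L55 gene g283. Of these, mt-S14 stood apart. It had 605, 370, 465 and 467 TPM at T48 in HSF1-rescue, control, Hsf1-/- and WT cells, against 86.8, 78.2, 123 and 111 TPM at T0, with no overlap between the times. The log2 ratios were 2.79, 2.23, 1.9 and 2.06 as deposited and 2.70, 1.85, 1.58 and 1.48 after scaling. At T48 it alone made up 20.8% of the summed TPM of the mitochondrial class in HSF1-rescue cells, 10.8% in control cells, 13.9% in Hsf1-/- cells and 12.8% in WT cells, against 2.72%, 2.33%, 3.06% and 3.85% at T0. The gene lies on chromosome 1 at 30513763-30514229 on the plus strand. On the minus strand, a gene with a metaxin domain, g4088, lies 129 bases away and had 48.9, 108, 96.0 and 88.3 TPM at T48 against 23.5, 26.5, 29.2 and 36.6 TPM at T0. A polyubiquitin gene, g4090, lies tail to tail with mt-S14 at a distance of 226 bases and had 1837, 1389, 1496 and 2183 TPM at T48 against 1328, 1279, 993 and 1148 TPM at T0. Both neighbours were also higher at T48 in every line, and whether their transcripts reach into mt-S14 was not tested.

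Next came mt-L9 (g2688), whose bacterial counterpart lies near the L1 stalk, with 151, 126, 131 and 147 TPM at T48 and 61.6, 71.2, 88.7 and 54.3 TPM at T0. Its ratios were 1.28, 0.81, 0.55 and 1.42. The mt-L55 gene g283 had 21.7, 25.8, 17.3 and 16 TPM at T48 against 11.8, 7.21, 9.41 and 7.19 TPM at T0, while the other mt-L55 gene of the same span, g277, had 14, 18.9, 14.5 and 16.5 TPM at T48 and 14.1, 11.5, 19.6 and 16.8 TPM at T0. These copies hence differed in pattern, with the same limit on reads that fit both. Higher by less, mt-S34 (g6567) had 88.6, 156, 134 and 157 TPM at T48 against 80.8, 82.0, 108 and 82.2 TPM at T0, and after scaling it was no longer higher in Hsf1-/- cells, at -0.01.

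Opposite to these, mt-L2 (g3799), whose bacterial counterpart lies at the peptidyl transferase centre, had 105, 145, 136 and 162 TPM at T48 against 224, 258, 240 and 295 TPM at T0. Its ratios of -1.08, -0.83, -0.81 and -0.86 resembled those of the cytosolic class. The others lower at T48 in every line were mt-L47, mt-S17, mt-S21, mt-S5, mt-L14, mt-L24, mt-S9 (g11502) and g7475 of the mt-S18 family. For mt-L47 (g2921), the lowest in WT cells at -1.15, the levels were 58.1, 95.2, 95.4 and 81.1 TPM at T48 and 115, 130, 138 and 182 TPM at T0. For mt-S17 (g7191), the lowest in Hsf1-/- cells at -1.34, they were 80.6, 67.8, 67.7 and 63.2 TPM at T48 and 143, 123, 173 and 90.8 TPM at T0. Neither gene had a T48 value above the T0 value of the same line.

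Other mitochondrial genes differed between lines. The stalk protein mt-L7/L12 (g6187) had 134, 129, 126 and 161 TPM at T48 against 221, 235, 296 and 143 TPM at T0, so that it was lower at T48 in the 3 edited lines and not in WT cells as deposited, while after scaling it was lower in WT cells as well, at -0.41. As deposited 18 of the 51 mitochondrial genes were higher at T48 in WT cells alone, and after scaling 7 were. The share of all genes higher in WT cells alone was not taken. In mt-S5 (g3358) the levels were 62.8, 47.6, 58.1 and 45.3 TPM at T48 and 86.5, 106, 132 and 49.3 TPM at T0. As deposited the difference was smallest in WT cells, where the T0 level of mt-S5 was lowest, but after scaling it was smallest in HSF1-rescue cells. The decoding centre protein mt-S12 (g10171), known from streptomycin resistance in bacteria, had 21.6, 24.3, 24.5 and 25.5 TPM at T48 and 19, 21.5, 25.8 and 15 TPM at T0. All its T48 values lay within 21.6 to 25.5 TPM. By contrast, mt-S2 (g13624) had 17.8, 62.3, 48.6 and 47.3 TPM at T48 against 22, 25.2, 29.6 and 37.1 TPM at T0, and was higher at T48 in every line but HSF1-rescue cells as deposited, and in control and Hsf1-/- cells after scaling. Of the 3 mt-L52 genes, 2 were low, from 2.26 to 4.24 TPM at T48 for g16682 and from 3.85 to 7.49 TPM for g17842, and the third is the gene listed at 0.

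**Figure D4:**
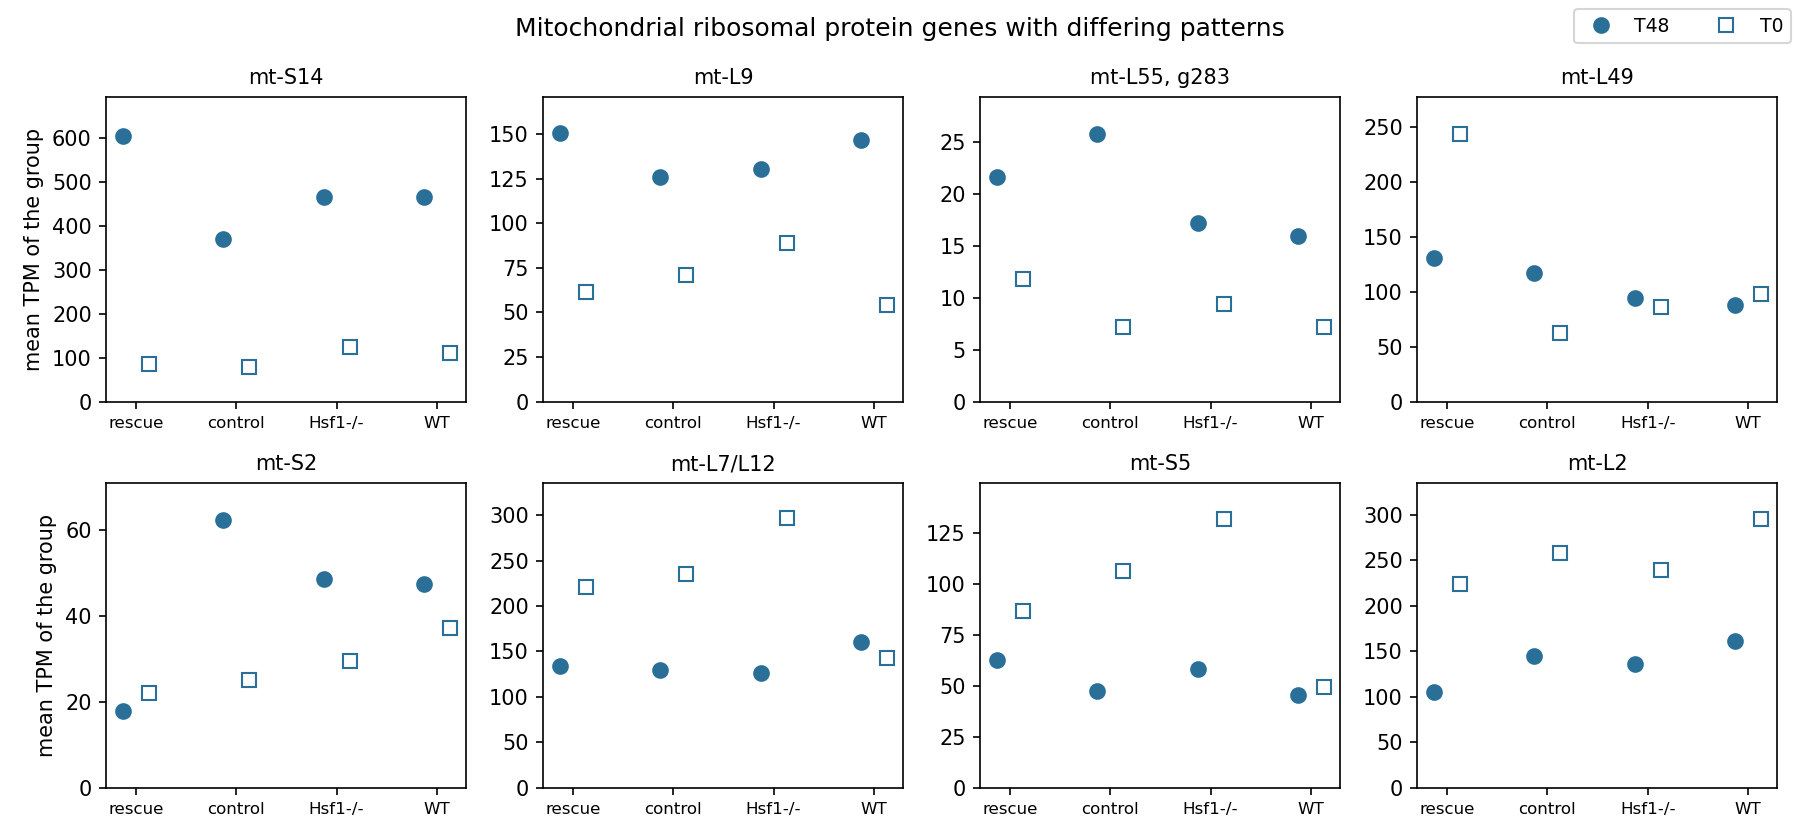
Mean TPM at T48 (filled circles) and T0 (open squares) of 8 mitochondrial ribosomal protein genes in each line, on axes that start at 0. T48 lies above T0 in every line for mt-S14, mt-L9 and the mt-L55 gene g283, and below it for mt-L2. The T0 value of mt-L49 in HSF1-rescue cells, 243 TPM, and the T48 value of mt-S2 in control cells, 62.3 TPM, are the highest of their panels.

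The design also asks whether restoring Hsf1 altered these levels. At T48 the cytosolic class was lower in HSF1-rescue than in control cells, at a median log2 ratio of -0.31, and 69 of 71 genes were lower. This is about the median of all genes, -0.34, of which 70.1% were lower, and after scaling the class median was 0.05 with 30 genes lower, beside 50.8% of all genes. At least 2-fold lower were 3 cytosolic genes, the weak L27 copy g8270 at -1.89, L10a at -1.08 and L30 at -1.08, beside 14.2% of all genes. L30 and L10a were among the 4 cytosolic genes that had T48 values above T0 in control cells. Of the cytosolic genes, 10 were lower by at least 1.5-fold, beside 33.7% of all genes, and none was 2-fold higher, beside 5.83%. The ratio for S30 was the highest of the class, at 0.05.

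The mitochondrial class stood at -0.43 in the same comparison, with 44 of 51 genes lower, and at -0.08 after scaling, with 32 lower. At least 2-fold lower in HSF1-rescue cells were 5 genes, beside 14.2% of all genes. They were mt-S2 at -1.75, mt-L28 at -1.17, mt-L51 at -1.16, mt-L18 at -1.09 and mt-S6 at -1.03. For mt-L28 (g5712) the T48 levels were 21.6 TPM in HSF1-rescue cells and 50 TPM in control cells, and for mt-L51 (g6744) 71.3 and 161 TPM. After scaling, mt-S2 alone stayed past 2-fold lower, at -1.40, beside 6.94% of all genes, and mt-S14 was past 2-fold higher, at 1.07, beside 9.51%.

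Before trehalose the cells differed less. The cytosolic median of HSF1-rescue over control cells at T0 was -0.11 as deposited and -0.04 after scaling. Lower were 53 of 71 genes as deposited, beside 58.9% of all genes, and 44 after scaling, beside 52.8%. No cytosolic gene was 2-fold lower, beside 2.41% of all genes, or 2-fold higher, beside 4.57%. The mitochondrial medians were -0.19 and -0.12, and 38 of 51 genes were lower as deposited and 35 after scaling. The exception was mt-L49 (g9779), with 243 TPM in HSF1-rescue and 62.2 TPM in control cells at T0, a log2 ratio of 1.95. Its T0 level in HSF1-rescue cells was also above those of Hsf1-/- cells, 86.1 TPM, and WT cells, 98.1 TPM, and its T48 levels were 131, 117, 94.5 and 87.8 TPM in the 4 lines.

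The loss of HSF1 in the parent line was compared with WT cells at both times. At T48 the cytosolic median of Hsf1-/- over WT cells was 0.12, with 21 of 71 genes lower beside 45.5% of all genes, and the median of all genes was 0.06. After scaling the median was 0.07 with 28 genes lower, beside 49.3% of all genes. Only the weak L27 copy was 2-fold higher, at 1.78 (25.3 TPM in Hsf1-/- cells, against 6.66 TPM in WT), beside 4.32% of all genes. S3A (g10408), at 4973 TPM in Hsf1-/- and 3081 TPM in WT cells, was next at 0.69, and S23 was lowest at -0.42. The mitochondrial median was -0.12 as deposited, with 39 of 51 genes lower, and -0.17 after scaling, with 40 lower. None was past 2-fold lower, beside 4.84% of all genes. The extremes of the class were mt-L14 (g10126) at 0.39 and mt-L17 (g2839) at -0.77, and mt-L17 was at 52.4 TPM in Hsf1-/- cells, against 89.9 TPM in WT.

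At T0 the classes parted. The mitochondrial median of Hsf1-/- over WT cells was 0.62, with 47 of 51 genes higher beside 68.2% of all genes, and 8 at least 2-fold higher, which is near the 13.4% of all genes. No member of either class was 2-fold lower, beside 5.59% of all genes. The cytosolic median was 0.05, with 45 of 71 genes higher, while the median of all genes was 0.29. After scaling the medians were 0.32 for the mitochondrial class, with 37 genes higher, and -0.26 for the cytosolic class, with 65 genes lower beside 49.1% of all genes. The direction of the cytosolic class hence depends on the scale, and that of the mitochondrial class does not. The 8 mitochondrial genes past 2-fold as deposited were mt-L34, mt-S5, mt-L36, mt-S15, mt-L20, mt-L7/L12, mt-L11 and mt-L14, and after scaling mt-L34 and mt-S5 alone were past it, beside 7.26% of all genes. For mt-L34 (g9796), the highest at 1.42, the T0 levels were 78.8 TPM in Hsf1-/- and 28.7 TPM in WT cells, and 57.1 and 56.8 TPM in HSF1-rescue and control cells. All the edited lines thus lay above WT cells for this gene at T0, as for mt-S5 and mt-L7/L12. The T0 group of WT cells is used in this comparison and in the T48 over T0 ratio of WT cells, and the 2 results share it.

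**Figure D5:**
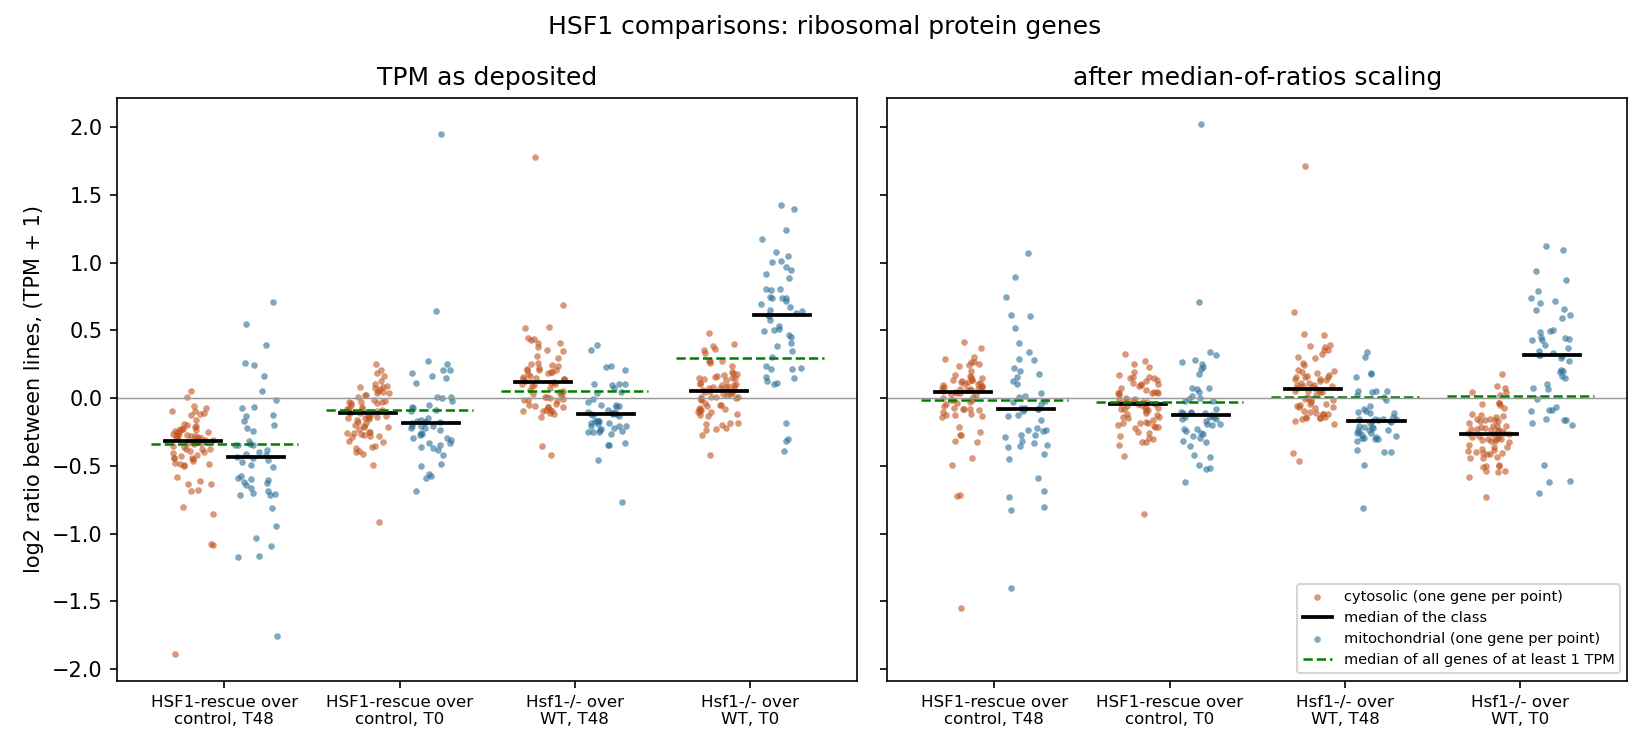
Log2 ratio between lines, on TPM + 1, for each ribosomal protein gene of at least 1 TPM, with the TPM as deposited (left) and after median-of-ratios scaling (right). Bars mark class medians and dashed lines the median of all genes of at least 1 TPM. The classes lie close together except for Hsf1-/- over WT cells at T0, where the mitochondrial median is 0.62 and the cytosolic one 0.05.

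HSF1 binds heat shock elements (HSEs), repeats of the triplet GAA and its complement TTC. The deposited table lists matches to 5 motifs of the factors HSF1, HSF2 and HSF4 in the 500 bases on each side of each start site, on the strand of the gene. Each motif was matched by 6.81% to 12.2% of all genes. With every motif, 15 of 71 cytosolic genes (21.1%) and 16 of 52 mitochondrial genes (30.8%) had a match, and so did 4901 of 17782 genes in all (27.6%). A motif of 8 bases gave many of these, and the study's methods name only the other 4 motifs. Without it, 10 cytosolic genes (14.1%) and 9 mitochondrial genes (17.3%) had a match, against 19.1% of all genes. The cytosolic share was below that of all genes with either set of motifs, and the mitochondrial share was above it with all motifs and below it without the short one. Matches to at least 3 motifs were found for 8 members, 6.50%, and for 6.69% of all genes. In each of the 8, the longer motifs cover nearly the same bases, so the number of motifs is not a measure of support. A site of mt-L17 holds 3 repeats but matched 1 motif, and is not printed. The sequences of 7 of the 8 are printed 5′ to 3′, with TTC and GAA in capitals.
L28: TTCtaGAAagttt
S14: TTCcaGAActttt
SF3A2/L32 model: atcgaGAAttTTC
mt-S9, g11504: TTCtgGAAtgtta
mt-L21: TTCtagctgcTTC
mt-L52, g16682: TTCcaGAAaaatc
glutamyl-tRNA ligase/L37-S30 model: TTCtaGAAatgtc
In the coordinates of assembly Pv_5.2, the site of L28 is chr2:15292791-15292803 on the minus strand, 208 bases before the start site, and that of S14 is chr3:6068756-6068768 on the plus strand, 374 bases before it. The site of the SF3A2/L32 model is chr3:3546025-3546037 on the minus strand, 54 bases before the start site. Those of mt-S9 and mt-L21 are chr3:16675983-16675995, 7 bases before, and chr2:7171818-7171830, 131 bases before, both on the plus strand. The site of mt-L52 is chr4:10495196-10495208 on the plus strand, 424 bases after the start site, and that of the glutamyl-tRNA ligase model is chr3:14305379-14305391 on the plus strand, 475 bases before it. The eighth, mt-L52 (g17842) on an unplaced scaffold, carries the same 13 bases as g16682. In 5 of the 7 printed sites TTC is followed after 2 bases by GAA. A listed match is a description of the sequence and not evidence that HSF1 binds there.

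The 3 cytosolic genes with these sites were lower at T48 in every line, as most of their class were, but by unlike amounts. S14 (g9932) had 4525, 5195, 5253 and 4555 TPM at T48 in HSF1-rescue, control, Hsf1-/- and WT cells, against 6116, 7082, 7228 and 5628 TPM at T0. It was thus lower at T48 in each line by less than the class median, while L28, described above, was lower by more. The merged SF3A2/L32 model had 1051, 1332, 1277 and 1224 TPM at T48 and 1836, 1919, 1960 and 1899 TPM at T0, close to the median. Among mitochondrial genes, mt-L21 (g5123) had 49.6, 67.3, 64.4 and 76.5 TPM at T48 against 58.5, 72.6, 78.8 and 50.7 TPM at T0. As deposited mt-L21 was thus lower at T48 in every line but WT cells. Between HSF1-rescue and control cells at T48, the 10 cytosolic genes with a match other than the short motif had a median of -0.30 and the 61 without one -0.33, and the mitochondrial medians were -0.43 for 9 genes with and -0.43 for 42 without.

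Members lay on all 4 chromosomes, though unevenly. Chromosome 4 held 2 members, 1.63%, but 18.1% of all genes, and chromosome 3 held 53, or 43.1%, against 29.6% of all genes. Chromosome 1 held 29 and chromosome 2 held 38. In 4 cases neighbouring genes were both members. S27 and S12 on chromosome 1 lie head to head at a distance of 179 bases, as do mt-L17 and mt-L15 at 267 bases and S6 and L36 on chromosome 3 at 491 bases, and L30 and mt-L23 lie tail to tail at 139 bases. The pair S27 and S12 are both among the genes above the cytosolic median in control cells. The mitochondrial pair was less alike. While mt-L15 (g2840) had 153, 234, 242 and 279 TPM at T48 against 154, 159, 184 and 158 TPM at T0, mt-L17 had 43.2, 65.7, 52.4 and 89.9 TPM at T48 against 65.1, 58.1, 80.1 and 52.3 TPM at T0. In Hsf1-/- cells mt-L15 was higher and mt-L17 lower at T48, and in control and WT cells both were higher, though in control cells mt-L17 was lower after scaling, at -0.20.

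Other genes of translation gave a frame for these values. Their 2-fold counts are as deposited and are to be read against 6.70%, 8.25%, 8.26% and 4.61% of all genes lower and 11.5%, 24.5%, 22.7% and 25.7% higher, in HSF1-rescue, control, Hsf1-/- and WT cells. Elongation factors, 9 genes, had median log2 ratios of T48 over T0 of -0.61, -0.34, -0.42 and -0.16 in this order of lines, and of -0.70, -0.72, -0.74 and -0.75 after scaling. By 2-fold 1, 0, 1 and 1 of them were lower and none higher. Initiation factors, 24 genes with a level, stood at -0.14, -0.07, -0.27 and 0.57, with 0, 1, 1 and 0 lower and 0, 1, 0 and 4 higher. After scaling they stood at -0.22, -0.45, -0.59 and -0.02, so that the direction in WT cells depends on the scale. Aminoacyl-tRNA ligases, 40 genes that charge tRNAs with amino acids, stood at -0.01, 0.65, 0.51 and 0.30, with 1, 0, 0 and 0 lower and 1, 14, 10 and 7 higher. After scaling they stood at -0.09, 0.27, 0.20 and -0.23, again with the direction in WT cells turned.

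Genes for the making of ribosomes, 35 in number, stood at -0.10, 0.06, -0.39 and 0.76, with 0, 1, 3 and 0 lower and 0, 3, 0 and 14 higher by 2-fold. After scaling they stood at -0.19, -0.32, -0.71 and 0.18, with the direction in control cells turned, and 2 in place of 14 were 2-fold higher in WT cells. This list holds L7A and P0, which are ribosomal proteins outside the gene ontology term, and without them its deposited medians were -0.07, 0.07, -0.39 and 0.77. Respiratory chain and ATP synthase genes, 25 of them, whose mitochondrially encoded partners are made by the mitochondrial ribosome, stood at -0.30, -0.74, -0.59 and 0.08, with 0, 6, 3 and 0 lower and none higher. After scaling they stood at -0.39, -1.12, -0.92 and -0.50, with the direction in WT cells turned. On both scales the cytosolic ribosomal proteins had a lower median than each of these lists in HSF1-rescue and WT cells, and the respiratory chain list was as low or lower in control and Hsf1-/- cells.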

How the data were processed

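RNA of 24 libraries in 8 groups (4 lines, T0 and T48, 3 libraries each) was read as poly(A) RNA. Per the labels and the study's methods, the authors aligned reads with HISAT2 to assembly Pv_5.2, sorted them with SAMtools 1.9, marked duplicates with Picard, counted reads per gene with HTSeq 0.6.0, with ambiguous reads and those of several alignments left uncounted, and converted the counts to TPM. The deposited expression signal is the mean TPM of each group, over 25248 lines that repeat a gene for each HSE match. A deposited score, from a FIMO search of start sites at a p-value threshold of 0.0001, comes with each match and was not used to rank sites. The authors' cluster columns hold their own comparisons and were not used. The study lists read counts per library, which were not used here. They do not give the spread between libraries, so the precision of a mean is unknown, and limma, chosen for a table of libraries, was not run. Replicate numbers name the libraries only, and nothing says that they came from separate cultures.

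Members, classes and lists were chosen with earlier results of these data known. The class had been planned from the majority of BLAST hits. As hits name only 35 members, the table's domain and pathway annotation placed the others, and 9 gene models that hold another gene were kept. Of the members, 53 were selected by rule, and some of these, such as S19 and L8, are not described above. The rule took the 6 most abundant cytosolic and 4 most abundant mitochondrial genes, the lowest of each, and the highest and lowest in each of 8 comparisons. It also took members with a known role apart, members that share a name, and members with HSEs of 3 or more motifs. P0 and mt-S29 fell outside the GO term. Other genes named were chosen after their values were seen.

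Ratios are log2 of (TPM + 1), which understates differences of low genes, for genes of at least 1 TPM in either group. Median-of-ratios factors over the 8873 genes above 0 in all groups ran from 0.774 to 1.22. Other pathway lists were fixed by GO term or description, without the members. Calculations used Python 3.11.15, pandas 2.3.3 and numpy 2.4.6, and were tested on simulated data. Start coordinates were converted to count from 1. Alternatives were other pseudocounts and minimum levels, both scalings, TPM without the 10 most abundant genes, BLAST classes alone, other members, and other folds and motif sets. The level of a gene model that joins S7 to other genes is not reported here.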

Additional observations from a re-analysis of the deposited data

How the results depend on the processing

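Group means allow no test, no interval and no leaving out of a library, and library depth was not used here, so a small difference cannot be told from error. No paired analysis was possible because the table holds only the mean of each group. A median was counted as the same when it moved by less than 0.1 log2 units. All 16 class medians stayed the same under pseudocounts of 0.1 and 0.01, minimum levels of 5 TPM and none, without merged gene models and with ribosomal proteins outside the term, the last 2 of these chosen after seeing the data, as were the BLAST majority and the ribosome making list without L7A and P0.

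Median-of-ratios scaling moved most. For T48 over T0, it gave cytosolic medians of -0.97 in control, -0.90 in Hsf1-/- and -1.23 in WT cells, and mitochondrial medians of -0.41, -0.71 and -0.27, the last reversed. With factors from genes that are not members these were -0.98, -0.92 and -1.24, and -0.42, -0.72 and -0.28 (reversed), with -0.86 and -0.42 for the classes in HSF1-rescue cells. At T48, HSF1-rescue over control cells reversed to a cytosolic median of 0.049 with the first factors and 0.046 with the others, and the mitochondrial one was -0.080 and -0.082. For Hsf1-/- over WT cells at T0 the medians were -0.26 (cytosolic) and 0.32 (mitochondrial) under both, and -0.059 and 0.51 in TPM without the 10 most abundant genes.

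By BLAST alone, by first hit as by majority, mitochondrial medians for T48 over T0 were -0.51, -0.44, -0.71 and 0.16 in HSF1-rescue, control, Hsf1-/- and WT cells, and the cytosolic median for HSF1-rescue over control cells at T0 was -0.25. Only 10 and 25 genes enter these. Of 224 counts past a fold under other settings, 47 moved by over 1.5 times, 20 of them at 1.5-fold. Cytosolic genes 2-fold lower at T48 in WT cells numbered 61 after scaling, against 9 as deposited.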

Other observations

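Ribosomal proteins that lack the GO term but are named by the annotation were set beside the members. There were 5 cytosolic ones, the stalk protein P0 and L7, L7A, L24 and S25. Each was lower at T48 in all 4 lines, and their median log2 ratios of T48 over T0 were -0.73 in HSF1-rescue, -0.55 in control, -0.54 in Hsf1-/- and -0.62 in WT cells, near those of the members. P0 had 2996, 3854, 3760 and 3231 TPM at T48 in these lines, against 4963, 6576, 5468 and 5616 TPM at T0. S25 was the most abundant, with 5554, 5990, 6053 and 4948 TPM at T48 against 9941, 9665, 10198 and 10289 TPM at T0.

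The 25 mitochondrial ones had medians of -0.33, -0.17, -0.49 and 0.46, and of 0.79 for Hsf1-/- over WT cells at T0. The members stood at -0.31, -0.03, -0.40 and 0.29, and at 0.62. After scaling the medians outside the term were -0.41, -0.54, -0.81 and -0.11, so that the one in WT cells turned, and 0.48. Among them mt-S29, known in mammals as the death-associated protein DAP3, had 30.5, 54.5, 43.0 and 61.2 TPM at T48 against 36.8, 57.3, 66.9 and 36.9 TPM at T0, so that it was higher at T48 in WT cells alone. Of the 25, 11 had this pattern as deposited and 8 after scaling. How many of all genes had it was not counted.

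For the comparison of HSF1-rescue with control cells at T0, the 33 genes for the making of ribosomes other than L7A and P0 stood at a median of -0.56 as deposited and -0.50 after scaling, and all 33 were lower in HSF1-rescue cells, beside 58.9% of all genes. The cytosolic ribosomal protein genes of the term stood at -0.11 and -0.04. No spread between libraries is available to test this, and both lines are single clones.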
